A study of Homo sapiens with 21 samples.

Results

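The transcription factors EHF and ELF3 are described here with 6 others that act in epithelia, GRHL1, GRHL2, KLF4, KLF5, OVOL1 and FOXA1. The 8 genes were taken by symbol from a table of 58735 genes, and they were chosen for their CPM (counts scaled to a common library total) over the coumarin doses of these same libraries. Their levels across dose are therefore given as a description, without p-values, and nothing is read from the calls counted for them. Messenger RNA was sequenced from cells labelled HepG2, which is a hepatic tumour line of human origin. They spent 24 h with coumarin, a plant benzopyrone, in medium without serum. The treated groups received 0.001, 0.01, 0.1, 1, 10 or 100 µM, and the control group received 0 µM in the same serum-free medium. Each of the 7 groups had 3 libraries, called biological replicates by the submitters, and 21 were sequenced in all. Nothing further says that they were separate cultures, so p-values measure the spread between these libraries, which may be technical.

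EHF and ELF3 belong to the epithelium-specific branch of the ETS family, whose members bind DNA at a GGAA core. GRHL1 and GRHL2 are grainyhead-like factors that maintain cell junction genes, and OVOL1 is a zinc-finger repressor that acts in epithelial differentiation. KLF4 and KLF5 are Krüppel-like zinc-finger factors that bind GC-rich sites, and in intestinal epithelium KLF4 is known from differentiated cells and KLF5 from proliferating cells. FOXA1 is a forkhead pioneer factor that opens chromatin in liver and other endoderm.

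Totals were 26984563 to 43375429 gene counts per library, and 16699 genes held enough counts to be tested with edgeR. Of the library total behind the deposited FPKM (fragments scaled by gene length and library total), 1.04% to 5.43% was not in the gene counts of the treated libraries, against 3.91%, 8.03% and 8.17% in control replicates 1, 2 and 3. Control replicates 2 and 3 thus lay above every treated library, and the mean of 3.49% at 100 µM and that of each other dose lay below the 6.70% at 0 µM. The part of this share in the comparisons with 0 µM was not tested. None of 12 hepatocyte markers had enough counts to be tested. The transcripts of ALB, TTR, APOC3, FGB and RBP4 had 0 counts in every library, and no marker of the list had more than 5 counts in any library. The label HepG2 was thus not borne out by the markers of a liver cell, and the cells are called by their label only. Among 8 fibroblast markers 6 were tested, and 2 fell at 100 µM and none rose. That is 33.3% called, near the 27.3% of all genes. The summed level of the fibroblast markers ran from 1383 to 1430 CPM in the libraries at 100 µM and from 1589 to 1676 CPM at 0 µM. Most of this sum was COL3A1. COL3A1, a fibrillar collagen, had 950 ± 16.3 CPM at 100 µM and 1164 ± 32.2 CPM at 0 µM (SD, n = 3 each), and PDGFRB, a growth factor receptor, had 20.1 ± 1.32 CPM at 100 µM and 37.2 ± 0.577 CPM at 0 µM (edgeR adjusted p = 3.09e-07 and 2.75e-15). COL1A1 and VIM did not pass (edgeR adjusted p = 0.202 and 0.527). PDGFRA had 0 counts throughout. Of 4 endothelial markers 2 were tested and CDH5 fell, with 0.0999 ± 0.0927 CPM at 100 µM and 0.571 ± 0.188 CPM at 0 µM (edgeR adjusted p = 0.000114), and the list summed to 1.46 to 1.87 CPM at 100 µM and 1.90 to 2.91 CPM at 0 µM. Of 4 leukocyte markers 1 was tested and did not pass.

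The promoters of EHF, ELF3 and KLF4 are printed because these genes stood furthest from their control levels at 100 µM on the log2 scale. They are the RefSeq windows of 250 bases before and 50 bases after a transcript start on GRCh38.p14, 5′ to 3′ on the gene's strand. Capitals mark matches, on either strand, to the motifs searched: the ETS core GGAA, the NF-kB site, the E-box CAGGTG bound by ZEB and SNAI factors, the TATA box TATAAA and the GC box GGGCGG. The grainyhead site CCGGTT, the half-site AGGTCA, the AP-1 site TGANTCA, the core GCGTG and the site TGANGCAA were searched as well.
EHF, start 1, chr11:34624007-34624306, + strand: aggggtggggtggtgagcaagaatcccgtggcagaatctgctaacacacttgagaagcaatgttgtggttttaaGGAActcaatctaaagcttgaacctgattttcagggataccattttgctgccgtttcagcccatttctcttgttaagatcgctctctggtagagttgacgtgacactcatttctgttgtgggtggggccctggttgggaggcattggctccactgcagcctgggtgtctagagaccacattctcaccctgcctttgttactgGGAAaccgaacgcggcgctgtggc
EHF, start 2, chr11:34632316-34632615, + strand: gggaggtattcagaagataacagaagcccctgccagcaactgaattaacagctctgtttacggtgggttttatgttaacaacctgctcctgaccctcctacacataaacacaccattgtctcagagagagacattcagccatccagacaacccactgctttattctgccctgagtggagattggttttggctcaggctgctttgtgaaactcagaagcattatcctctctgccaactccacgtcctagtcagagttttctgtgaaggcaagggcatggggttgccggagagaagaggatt
ELF3, chr1:202010337-202010636, + strand: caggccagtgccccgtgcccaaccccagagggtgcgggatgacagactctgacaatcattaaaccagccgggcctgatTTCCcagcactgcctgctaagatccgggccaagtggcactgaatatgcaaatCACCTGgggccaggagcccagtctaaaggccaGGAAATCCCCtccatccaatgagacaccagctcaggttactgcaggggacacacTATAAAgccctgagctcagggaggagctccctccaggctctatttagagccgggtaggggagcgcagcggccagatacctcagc
KLF4, chr9:107489720-107490019, - strand: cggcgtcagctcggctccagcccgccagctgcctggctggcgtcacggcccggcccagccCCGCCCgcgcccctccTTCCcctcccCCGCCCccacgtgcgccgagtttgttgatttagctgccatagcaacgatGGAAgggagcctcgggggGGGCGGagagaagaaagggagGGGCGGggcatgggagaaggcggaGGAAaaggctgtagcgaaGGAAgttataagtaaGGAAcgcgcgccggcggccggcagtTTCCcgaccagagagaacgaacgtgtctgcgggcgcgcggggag

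The first EHF window held 2 ETS cores, and the second held no match to any motif searched. The ELF3 window held 2 ETS cores, and the core 88 bases before the start lies inside the NF-kB match. It also held an E-box 120 bases and a TATA box 34 bases before the start. The KLF4 window held 6 ETS cores and 4 GC boxes. Over all RefSeq promoters of the table, 95.5% held an ETS core, 6.52% the NF-kB site, 20.6% the E-box, 11.5% the TATA box and 45.0% the GC box. At least 6 ETS cores were found in 16.1% of promoters, and at least 4 GC boxes in 9.06%. A match is a run of letters and not a measured site. Windows were found for 6 of the 8 genes, and none was looked up for GRHL2.

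EHF (ENSG00000135373, chromosome 11, 34621093 to 34661057, + strand, GRCh38) had the greatest log2 difference at 100 µM of the 6 genes tested. In CPM the difference of ELF3, a more abundant transcript, was greater. At 100 µM it had 0.488, 0.374 and 0.392 CPM in the 3 libraries, against 1.64, 1.45 and 1.78 CPM at 0 µM. All 3 libraries at 100 µM lay below every control library. These levels rest on few reads, with 14, 11 and 15 counts at 100 µM and 49, 44 and 55 counts at 0 µM. The fitted log2 difference was -1.95 ± 0.25 (SE), or 3.87-fold lower at 100 µM. From 0.001 to 10 µM its libraries ran from 1.12 to 1.95 CPM and overlapped the controls. In bulk RNA, fewer cells that express a gene and less of its RNA per cell cannot be told apart.

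ELF3 (ENSG00000163435, chromosome 1, 202007945 to 202017188, + strand) was more abundant than EHF and varied little between replicates. At 100 µM its libraries had 30.4, 31.0 and 28.9 CPM, against 57.9, 56.0 and 56.3 CPM at 0 µM. The groups did not overlap, and the log2 difference was -0.92 ± 0.05 (SE), or 1.89-fold lower at 100 µM. At 10 µM ELF3 had 48.2, 47.1 and 47.9 CPM, also below every control, with a log2 difference of -0.25 ± 0.05 (SE). The levels did not follow the dose in order. The log2 differences from 0 µM were -0.18 at 0.001 µM, 0.01 at 0.01 µM, 0.00 at 0.1 µM and -0.20 at 1 µM. The libraries at 0.001 and 1 µM lay below the controls, and those at 0.01 and 0.1 µM overlapped them.

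ELF3-AS1 (ENSG00000234678, chromosome 1, 201995696 to 202010463, - strand) is an antisense transcript that overlaps the 5′ end of ELF3 as the files' gene model gives it. Being on the - strand, it starts at 202010463, inside the printed ELF3 window and upstream of the RefSeq start of ELF3. That RefSeq start lies 2642 bases downstream of the start of ELF3 in the files' gene model. ELF3-AS1 runs away from the RefSeq start. ELF3-AS1 fell to 4.85, 6.32 and 5.27 CPM at 100 µM, against 8.79, 10.2 and 10.5 CPM at 0 µM, a log2 difference of -0.84 ± 0.11 (SE; edgeR adjusted p = 9.82e-08). The strand setting of the counting is not given in the sources used here, so reads of ELF3 and of ELF3-AS1 in their overlap cannot be told apart.

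KLF4 (ENSG00000136826, chromosome 9, 107484852 to 107490482, - strand) lay on the other side of its controls. It had 13.3, 12.5 and 12.1 CPM at 100 µM, against 6.92, 7.30 and 6.04 CPM at 0 µM. The groups did not overlap, and the log2 difference was 0.90 ± 0.09 (SE), or 1.87-fold higher at 100 µM. At 10 µM its libraries had 7.45, 6.65 and 7.60 CPM and overlapped the controls. KLF5 (ENSG00000102554, chromosome 13, 73054976 to 73077542, + strand) had 73.6, 71.6 and 70.3 CPM at 100 µM, against 82.6, 82.0 and 76.6 CPM at 0 µM. Its groups did not overlap either, but the log2 difference was only -0.16 ± 0.04 (SE). From 0.001 to 10 µM KLF4 ran from 5.08 to 7.60 CPM and KLF5 from 76.4 to 87.1 CPM. The ratio of KLF4 to KLF5 in reads per base needs no library scaling, and it was 0.187 ± 0.00392 at 100 µM and 0.0892 ± 0.00542 at 0 µM (SD, n = 3 each).

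FOXA1 (ENSG00000129514, chromosome 14, 37589984 to 37596059, - strand) had 11.9, 12.2 and 12.2 CPM at 100 µM, against 14.3, 12.6 and 13.2 CPM at 0 µM. Its libraries at 100 µM lay just under the lowest control, with a log2 difference of -0.15 ± 0.08 (SE). GRHL1 (ENSG00000134317, chromosome 2, 9951693 to 10002277, + strand) had 3.91, 4.72 and 5.35 CPM at 100 µM, against 4.01, 4.18 and 4.04 CPM at 0 µM, and these groups overlapped. From 0.001 to 10 µM its libraries ran from 3.04 to 4.65 CPM, and those of FOXA1 from 13.0 to 15.97 CPM. OVOL1 (ENSG00000172818, chromosome 11) had 3 counts in all, 1 in control replicate 2 and 2 in replicate 2 at 100 µM. GRHL2 (ENSG00000083307, chromosome 8) had 0 counts in all 21 libraries, which allows up to 0.111 CPM in the smallest library (3 counts, for counting error only).

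**Figure D1:**
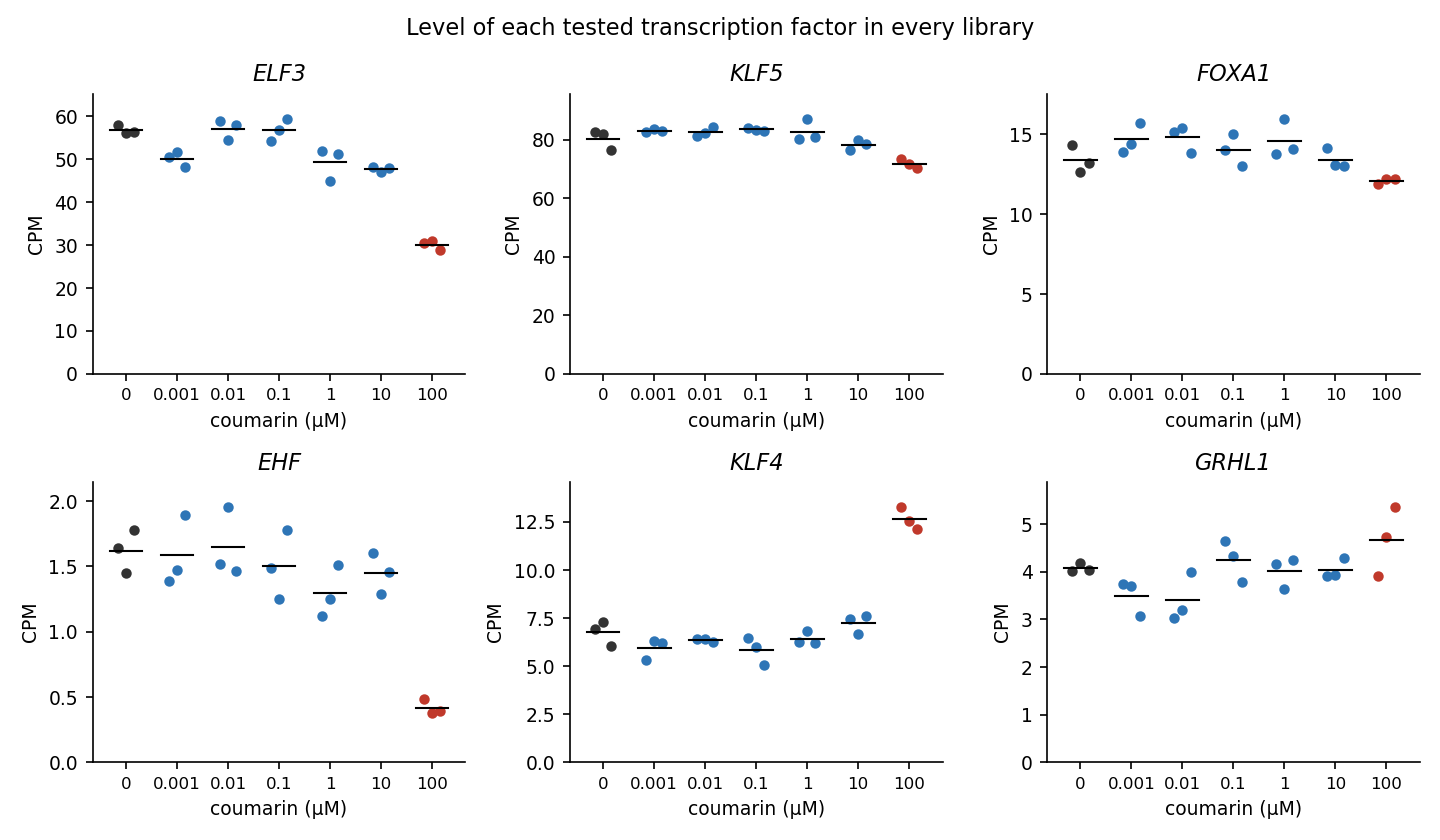
Level of each tested factor in CPM (vertical axis, from 0) in every library at each coumarin dose in µM (horizontal axis). Points are libraries and bars are group means. ELF3 and EHF at 100 µM lie below all other libraries, and KLF4 at 100 µM lies above all of them.

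**Figure D2:**
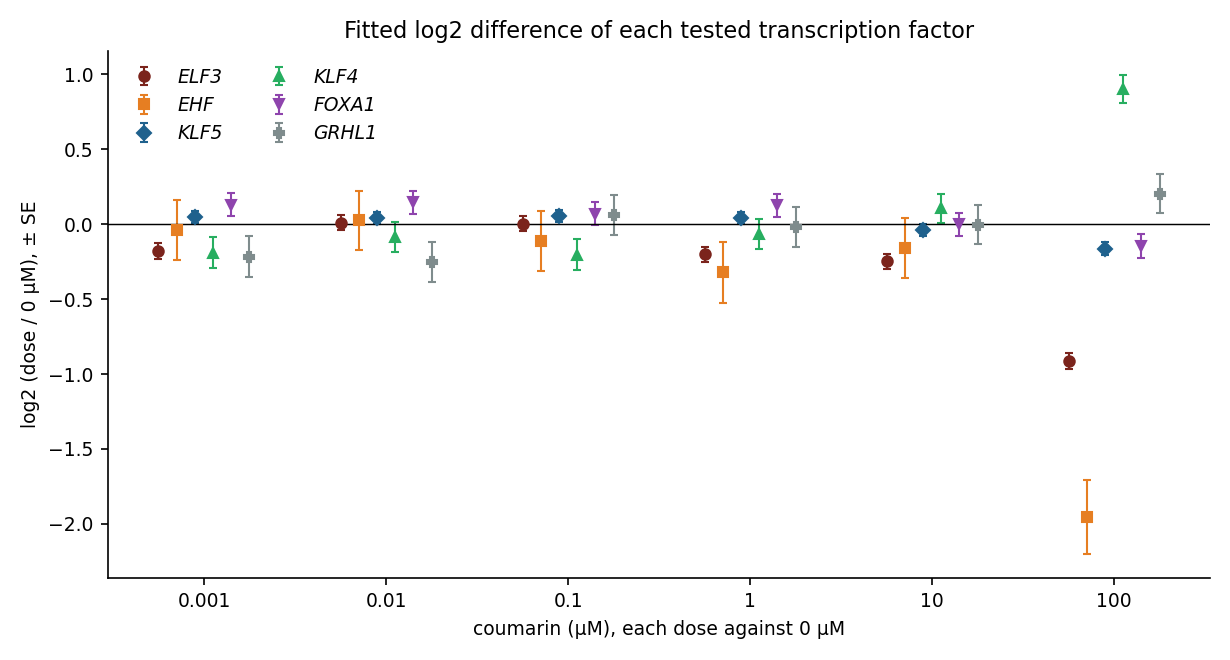
Fitted log2 difference (edgeR) of the 6 tested factors at each dose against 0 µM, with bars of ± 1 SE. At 100 µM the estimates run from -1.95 for EHF to 0.90 for KLF4.

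Of the 6 factors tested at 100 µM, the edgeR test called 1 higher (KLF4) and 3 lower (EHF, ELF3 and KLF5), where 27.3% of all genes were called, 14.4% higher and 12.9% lower. At 10 µM it called ELF3 alone, lower, where 2.62% of all genes were called, 1.74% higher and 0.874% lower. For 100 µM against 10 µM it called KLF4 higher and EHF, ELF3 and KLF5 lower, where 18.3% of all genes were called, 8.22% higher and 10% lower. For the 12 libraries at 0.001 to 1 µM against 0 µM it called none of the 6, where 6.99% of all genes were called, 5.25% higher and 1.74% lower. With these doses taken singly it called ELF3 lower at 1 µM, where 2.01% of all genes were called, and none of the 6 at 0.001, 0.01 or 0.1 µM, where 1.53%, 5.86% and 6.45% were. The factors were chosen on these contrasts, so nothing is read from these counts.

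On the length-scaled FPKM scale, levels can be set in order between genes. At 100 µM KLF5 had 17.7 FPKM, ELF3 4.03, KLF4 3.32, FOXA1 2.92, GRHL1 0.563 and EHF 0.0916. At 0 µM KLF5 had 19.8 FPKM, ELF3 7.56, FOXA1 3.22, KLF4 1.77, GRHL1 0.491 and EHF 0.354. KLF4 thus stood above FOXA1 at 100 µM and below it at 0 µM, and the replicates of neighbours in either order did not overlap. The ratio of EHF to ELF3 in reads per base was 0.0228 at 100 µM and 0.0468 at 0 µM, and that of ELF3 to KLF5 was 0.227 at 100 µM and 0.382 at 0 µM.

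**Figure D3:**
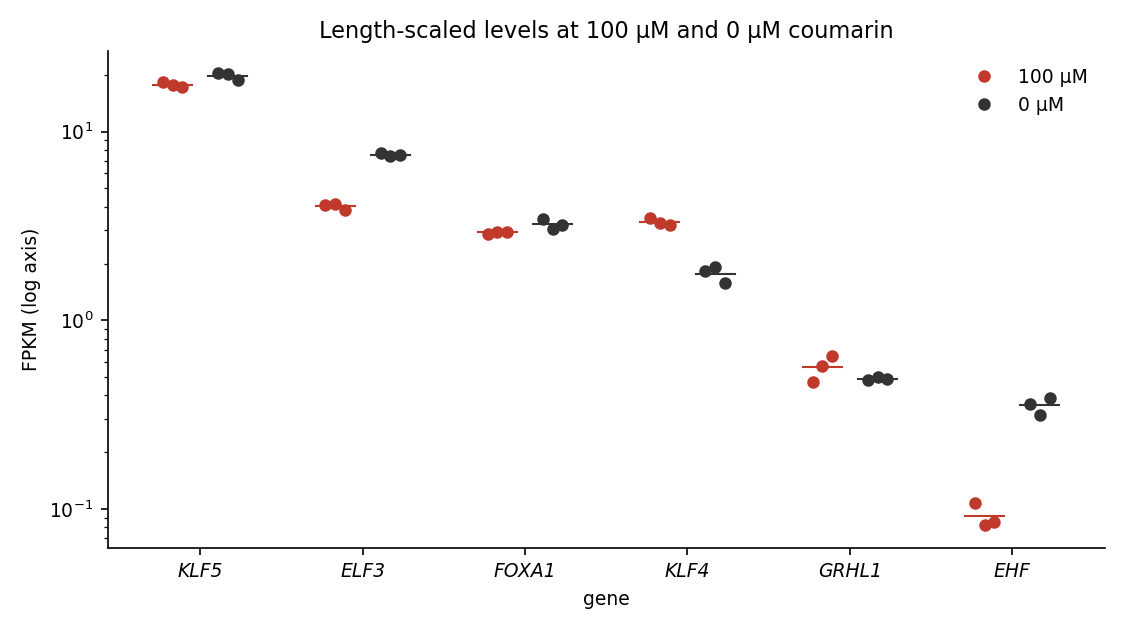
FPKM (log axis) of the 6 tested factors, with libraries at 100 µM left of those at 0 µM for each gene; bars are means. KLF4 and FOXA1 change places, at 3.32 and 2.92 FPKM at 100 µM against 1.77 and 3.22 FPKM at 0 µM.

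The genes whose dose profile was most like that of EHF were found among 11466 protein-coding genes by the root mean square difference of centred log2 CPM over the 7 groups. They were ALDH3A1 (0.100), CRB2 (0.139), VSIR (0.143), HRASLS2 (0.155) and PTGS1 (0.162), where the median gene differed by 0.611. ALDH3A1, an aldehyde dehydrogenase, had 14.4 ± 0.624 CPM at 100 µM and 46.9 ± 4.26 CPM at 0 µM (SD, n = 3 each). PTGS1, the constitutive cyclooxygenase, had 17.1 ± 1.78 CPM at 100 µM and 46.0 ± 1.57 CPM at 0 µM. Nearest to ELF3 were IER3 (0.0423), FSTL4 (0.0544), EXOC3L4 (0.0561), ALDH3B1 (0.0691) and LRP2 (0.0706), where the median gene differed by 0.310. IER3, an immediate early response gene, had 66.8 ± 2.20 CPM at 100 µM and 134.8 ± 4.71 CPM at 0 µM. EHF and ELF3 differed from each other by 0.325, which is below the median distance of genes from EHF (0.611) and just above that from ELF3 (0.310). These genes were picked for their profiles, so their levels are a description.

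**Figure D4:**
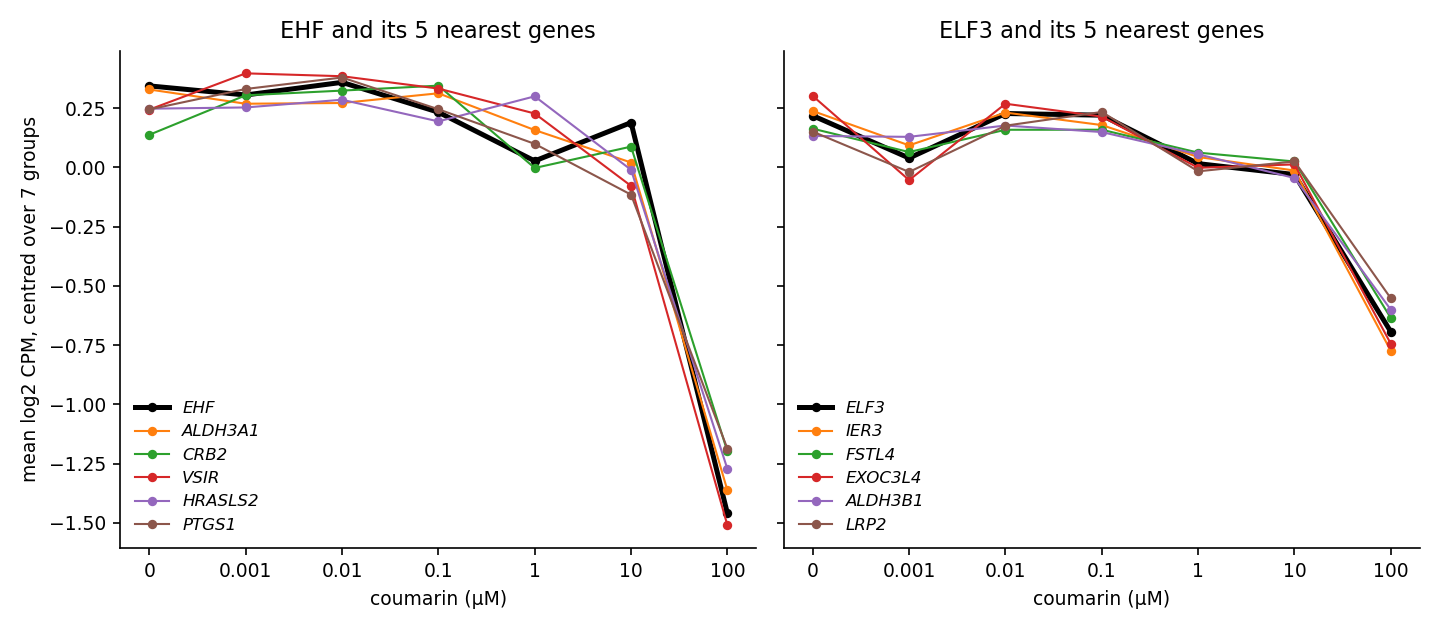
Mean log2 CPM, centred over the 7 groups, of EHF (left) and ELF3 (right) and of the 5 genes nearest to each, against coumarin dose in µM. All profiles have their lowest value at 100 µM.

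Of 26 other ETS genes 17 were tested, and 3 fell at 100 µM and none rose, 17.6% called against 27.3% of all genes, with a median log2 difference of -0.02 against -0.01 over all genes. ETV1 fell by 0.60 on the log2 scale, to 22.5 ± 1.25 CPM at 100 µM against 34.2 ± 0.38 CPM at 0 µM (edgeR adjusted p = 1.97e-11). ELK3, a ternary complex factor, fell by 0.30 (edgeR adjusted p = 0.000138). ETS1 fell by 0.13 (edgeR adjusted p = 0.0216), a call lost in 6 of 18 alternatives. The ETS genes with the highest levels did not pass: ERF averaged 30.2 FPKM over all libraries, ELK1 17.8 and ETS2 16.6.

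Of 25 other KLF and SP genes 19 were tested, and 2 rose and 2 fell at 100 µM, 21.1% called against 27.3% of all genes, with a median of 0.01. With upper-quartile scaling 1 was higher and 3 were lower. KLF7 fell by 0.44 and KLF9 by 0.28 on the log2 scale (edgeR adjusted p = 4.08e-07 and 0.000207). KLF16 rose by 0.28 and SP1 by 0.12 (edgeR adjusted p = 0.00128 and 0.0129). The SP1 call was lost in 6 of 18 alternatives, among them upper-quartile scaling and leaving out control replicate 1 or replicate 1 or 2 at 100 µM. Both rises were lost against the libraries at 0.001 to 1 µM. KLF13, at 8.90 FPKM, did not pass, with 84.7 ± 0.992 CPM at 100 µM and 84.5 ± 4.01 CPM at 0 µM.

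Among 8 relatives of the grainyhead, OVOL and FOXA genes 3 were tested and 1 was called at 100 µM, 33.3% against 27.3% of all genes. UBP1 rose by 0.16 on the log2 scale (edgeR adjusted p = 0.00297), while TFCP2 (12.2 FPKM) and OVOL3 (0.362 FPKM) did not pass. OVOL2 and FOXA2 had 0 counts throughout. Of 23 other epithelial lineage factors 9 were tested, and 1 rose and 2 fell, with a median of -0.03. That is 33.3% called, near the 27.3% of all genes, and 1 call without control replicate 1. PRDM1 fell by 0.45 and TFAP2A by 0.12 (edgeR adjusted p = 5.22e-08 and 0.024), and ONECUT2 rose by 0.33 (edgeR adjusted p = 0.012). The calls of TFAP2A and ONECUT2 were lost in 4 and 5 of 18 alternatives. ESRP2, a splicing regulator of epithelial cells, did not pass at 16.5 FPKM.

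Of 41 epithelial junction and polarity genes 37 were tested, and 5 rose and 12 fell at 100 µM. That is 45.9% called, against 27.3% of all genes, with a median of -0.15 against -0.01 over all genes. The list was chosen with earlier results of these data known, so this share is a description. The fibroblast markers COL3A1 and PDGFRB and the endothelial marker CDH5 fell at the same dose, while COL1A1, VIM and ERG of the same marker lists did not pass. None of these markers is in the junction list, and whether the falls of COL3A1, PDGFRB and CDH5 bear on its count was not tested. JUP, plakoglobin of desmosomes and adherens junctions, averaged 128 FPKM and fell to 412 ± 9.82 CPM at 100 µM, against 668 ± 39.8 CPM at 0 µM (SD, n = 3 each; edgeR adjusted p = 3.05e-13). The integrin subunits ITGB6 and ITGB4 fell by 1.53 and 1.12 on the log2 scale (edgeR adjusted p = 3.84e-07 and 4.16e-09). PERP, a desmosome protein, fell by 0.34, and CLDN4 by 0.99 (edgeR adjusted p = 2.29e-08 and 0.00538). The CLDN4 call was lost without control replicate 1. With limma on log2 of FPKM plus 1, which shrinks differences at low FPKM, ITGB6, ITGB4 and CLDN4 had -0.33, -0.44 and -0.13. On that scale JUP had -0.68 and PERP -0.32.

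The tight junction genes MARVELD2 and CLDN1 rose at 100 µM by 0.62 and 0.58 on the log2 scale (edgeR adjusted p = 0.00122 and 0.000228), the first lost against control replicate 1 alone. MAL2, which acts in apical transport, rose by 0.39 to 87.8 ± 1.18 CPM at 100 µM, against 66.9 ± 1.82 CPM at 0 µM (edgeR adjusted p = 1.62e-09). DSG2, a desmosomal cadherin, did not pass, with 204 ± 2.05 CPM at 100 µM and 198 ± 3.44 CPM at 0 µM. Against the libraries at 0.001 to 1 µM it passed as lower (log2 difference -0.0839, edgeR adjusted p = 0.0433). For 100 µM against 10 µM, 2 junction genes rose and 11 fell, 35.1% called against 18.3% of all genes. For 0.001 to 1 µM against 0 µM 6 rose and none fell, 16.2% called against 6.99% of all genes, and with upper-quartile scaling 3 were higher. At 10 µM 5.41% of the junction genes were called, against 2.62% of all genes. DSP and AP1M2 rose by 0.21 and 0.26 (edgeR adjusted p = 0.00184 and 0.0082). Neither call held against control replicate 1 alone or against the libraries at 0.001 to 1 µM. That of AP1M2 was also lost without control replicate 3 and without replicate 3 at 10 µM.

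Of 12 repressors of epithelial genes 9 were tested, and 3 rose and 2 fell at 100 µM, with a median of 0.14. That is 55.6% called, against 27.3% of all genes. This list and that of ELF3 targets were chosen with earlier results of these data known, so their shares are a description. FOXQ1 rose by 0.81, SNAI2 by 0.34 and TWIST1 by 0.29 on the log2 scale (edgeR adjusted p = 0.000383, 2.67e-05 and 0.00241). TCF4 fell by 0.42 and TWIST2 by 0.31 (edgeR adjusted p = 9.42e-07 and 0.00164). Of 10 genes reported elsewhere as ELF3 targets 7 were tested, and 4 fell and none rose, with a median of -0.38. That is 57.1% called, against 27.3% of all genes, and 2 calls without control replicate 3 or against control replicate 1 alone. KRT8, a keratin of simple epithelia, fell to 1789 ± 50.3 CPM at 100 µM, against 2407 ± 131 CPM at 0 µM (edgeR adjusted p = 4.87e-11). TGFBR2, a TGF-beta receptor, fell to 52.5 ± 1.34 CPM at 100 µM, against 68.3 ± 1.54 CPM at 0 µM (edgeR adjusted p = 4.36e-09). PTGS2 and MMP13 fell by 0.39 and 1.75 (edgeR adjusted p = 0.0144 and 0.00962), and both calls were lost without control replicate 3. With limma on log2 of FPKM plus 1, which shrinks differences at low FPKM, they had -0.19 and -0.12. On that scale KRT8 had -0.42 and TGFBR2 -0.35. CLDN7 did not pass, with 30.3 ± 3.33 CPM at 100 µM and 33.4 ± 1.93 CPM at 0 µM.

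**Figure D5:**
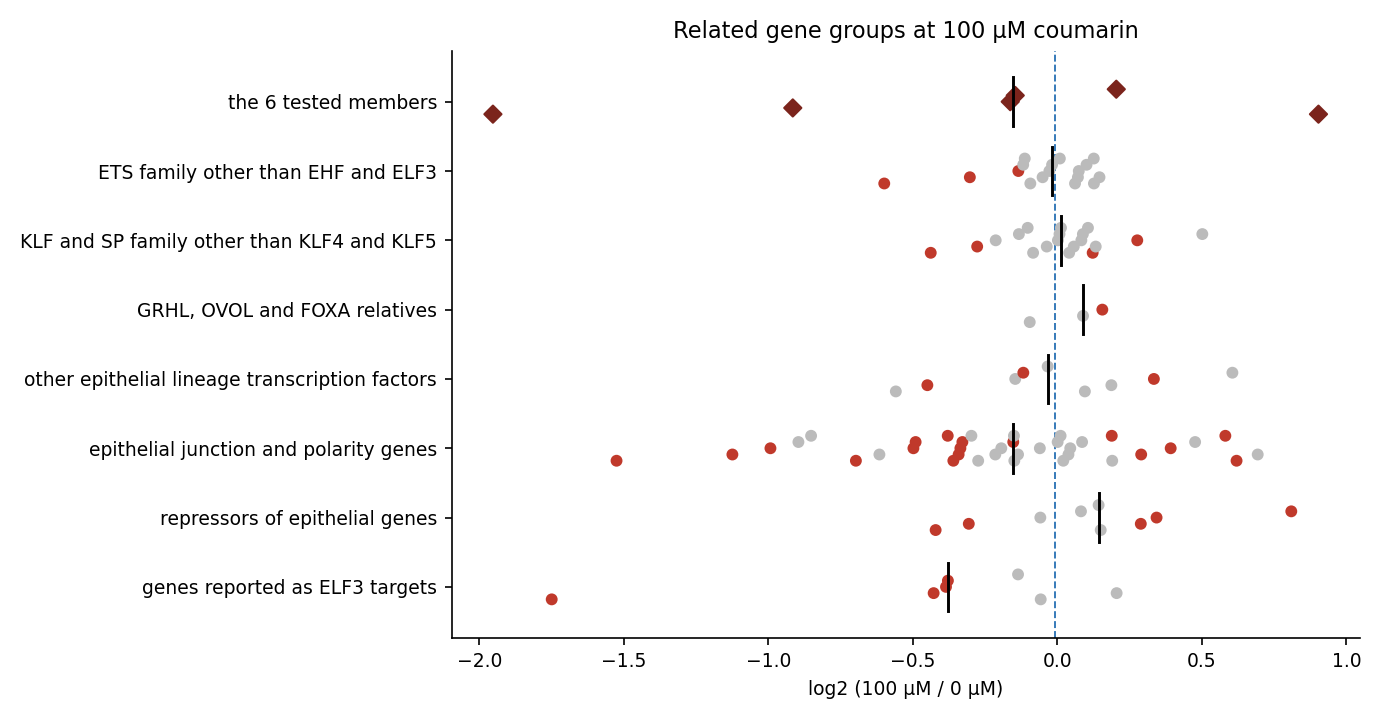
Fitted log2 difference at 100 µM against 0 µM for the genes of each list (points; red where edgeR called them, grey where not), with the list median as a black bar and the median of all genes as a dashed line. Diamonds are the 6 tested factors, called or not; the medians run from -0.38 for reported ELF3 targets to 0.14 for repressors of epithelial genes.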

How the data were processed

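Whole-number counts per gene and a table of FPKM were deposited by the authors, the FPKM scaled by gene length and a library total. Per the submitters' processing notes, HISAT2, DESeq2 and GRCh38 were used. Their versions, the counter and its strand setting were not given in the sources used here. GENCODE 29 held each of the 58735 gene identifiers.

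Samples were grouped by labelled dose. The count test was edgeR 4.0.16 under R 4.3.3 (filterByExpr, TMM scaling, 1 quasi-likelihood fit of all 21 libraries, 14 residual degrees of freedom). P-values were two-sided and Benjamini-Hochberg adjusted over 16699 genes, with a threshold of 0.05. "Rose" and "fell" are used of genes that passed. CPM used TMM-scaled totals. Alternatives were RLE and upper-quartile scaling, other filters, only the groups compared, a replicate block, each library left out, a threshold of 0.01, limma 3.58.1 on log2 of FPKM plus 1 or 0.1, DESeq2 1.42.0, control replicate 1 alone and the 0.001 to 1 µM libraries as reference. The code was tested on simulated data.

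The factors and gene lists were chosen with earlier results of these data known. Named genes are the 8 factors, the 5 protein-coding genes (mean of at least 1 CPM) nearest to EHF and to ELF3, and of each list up to 3 called genes each way with the largest difference and the 3 with the highest FPKM. Totals limit precision, and floors cover counting error only.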

Additional observations from a re-analysis of the deposited data

How the results depend on the processing

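EHF and ELF3 kept their direction at 100 µM in all alternatives run. The log2 difference of EHF was -0.31 and -1.24 with limma on FPKM plus 1 and plus 0.1. EHF had 0.0916 FPKM at 100 µM and 0.354 FPKM at 0 µM, below the added 1, which shrinks its difference. The log2 difference of ELF3 was -0.77 on FPKM plus 1 and -0.82 against the 0.001 to 1 µM libraries. Leaving out each library gave -2.07 to -1.88 for EHF and -0.94 to -0.89 for ELF3.

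For 100 µM, 10 µM and 0.001 to 1 µM against 0 µM, the calls numbered 4558, 437 and 1167, and 3051 for 100 µM against 10 µM. At an adjusted p under 0.01 they numbered 2966, 138, 538 and 1825 in that order. Against control replicate 1 alone the first 3 were 2222, 91 and 186, and with only the groups compared the 10 µM count was 213. Leaving out each library gave ranges of 3516 to 4318, 92 to 649, 373 to 1380 and 2204 to 2837; the counts of 92 and 373 were without control replicate 3. Upper-quartile scaling moved the share of calls that were higher to 41.4% in place of 52.9% at 100 µM. The share was 37.5% in place of 66.6% at 10 µM and 51.8% in place of 75.1% at 0.001 to 1 µM. This scaling also moved the median log2 difference of all genes, by -0.032, -0.030 and -0.028 in that order. For 100 µM against 10 µM the median moved by -0.002. The causes were not tested.

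Same-numbered replicates did not deviate together (r from -0.139 to 0.127 over 63 pairs, 1 over 0.1). With the replicate block the counts were 4446, 376, 1108 and 2951, EHF -1.96 and ELF3 -0.92.

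Of the 42 genes named and called at 100 µM that are none of the 8 factors, ELF3-AS1 included, 32 kept the call in every alternative that gave a value. Most were named for their dose profile or for a large called difference in this same comparison. The count is therefore a description. Genes that had not passed changed sign or passed. ELK1 and ERF passed as higher with no filter and with only the groups compared, CLDN7 as lower without replicate 3 at 100 µM, and CSF1R and DSG2 as lower against the 0.001 to 1 µM libraries. Against the 0.001 to 1 µM libraries the log2 difference was -0.00417 for ERF, -0.0556 for KLF13, -0.0294 for TFCP2, 0.46 for OVOL3, -0.0839 for DSG2 and -0.0466 for COL1A1, and that of DSP at 10 µM, which had passed, was -0.0631. KLF13 was -0.00191 with RLE, -0.0311 with upper-quartile scaling, -0.00513 with the 1 CPM filter, -0.00117 with only the groups compared and -0.00066 with DESeq2. Leaving out each library gave -0.0341 to 0.0330 for KLF13, -0.39 to 0.27 for OVOL3 and -0.23 to 0.14 for ERG. Against control replicate 1 alone OVOL3 was 0.83 and VIM -0.0303. The causes were not tested.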
